A study of Mus musculus with 12 samples.

Results

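The 33 genes described here are markers of endothelial cells, the cells that line blood and lymph vessels, read in myeloid cells sorted from mouse kidney. They were chosen by name: every probe on the array whose gene name is on the list was taken, which gave 45 probes for the 33 genes, of 34750 genes with 55651 probes in all. The study measured gene expression on 12 one-colour Agilent arrays in 4 groups of 3. The first group was op/op renal cells (replicates 1, 2 and 4), from mice of the strain B6C3Fe a/a-Csf1op/J homozygous for op, a mutation of Csf1, which encodes the growth factor M-CSF that most macrophages need. WT renal cells (replicates 1, 2 and 4) came from wild-type mice of that strain. Both genotypes were given glyoxylate, which leads to calcium oxalate crystals in the kidney, at 80 mg/kg over 6 days, so there was no untreated kidney, and from both the cells carrying CD11b and CD11c were taken with a magnetic sorter (autoMACS). The marrow groups were macrophages grown from bone marrow of the same strain, polarized to M1 with LPS and GM-CSF (replicates 2, 3 and 4) or to M2 with IL-4 and M-CSF (replicates 2, 3 and 4). The labels give neither the animals' age nor the marrow donors' genotype, and all 12 carry the glyoxylate protocol, which does not say whether marrow donors were treated. The op mutation is present in every tissue of the op/op mice, and the sort selects cells by surface protein, not by lineage.

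Endothelial cells are held together by junction proteins such as VE-cadherin and claudin 5, and they read growth signals through the VEGF receptors and the angiopoietin receptors. In the kidney they form the fenestrated glomerular tuft and the peritubular capillaries, each with its own surface proteins, while ETS and SOX factors keep the endothelial programme on. Several of the listed genes are not confined to vessels: Pecam1, Icam2, Eng and S1pr1 are also used by leukocytes, Cd34 and Tal1 by blood progenitors, Vwf by megakaryocytes, and Lyve1 by lymphatic endothelium and some tissue macrophages.

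The labels call the sorted cells macrophages, and all 15 macrophage markers examined were well above background on all 6 renal arrays. The share of spots well above background, as Feature Extraction called them, was 63.1% to 68.8% on the op/op arrays, 76.3% to 79.5% on the WT arrays, 72.9% to 75.4% on the M1 arrays and 64.8% to 65.4% on the M2 arrays, and no probe was saturated. The number of arrays limits the precision. WT replicate 1 was alone on 1 slide, the other 5 renal arrays shared another and the 6 marrow arrays one of their own, so that renal against marrow and slide cannot be told apart. The WT and M1 arrays lay in row 1 of their slides and the op/op and M2 arrays in row 2. Row therefore cannot be told apart from genotype, nor from M1 against M2. Levels are given as log2 signal relative to the 75th percentile of the same array, so that 0 is a bright probe and each step of 1 is 1 power of 2. The level of one gene's probe is not comparable with that of another gene's. Differences were fitted with limma over all 12 arrays, and a gene was called at an adjusted p under 0.05 (Benjamini-Hochberg over all genes tested). Whether replicates are separate animals or cultures is not labelled, and p-values refer only to how far these samples spread, which can be technical variation. The renal arrays varied more than the marrow arrays (median residual SD 0.376 against 0.172), and the fit pools both, so that its errors are smaller than the renal arrays alone would give and larger than the marrow arrays alone would give. In such bulk samples, fewer cells of a type and less RNA per cell cannot be told apart.

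The array reads each gene through probes of 60 bases, and a few of these are shown. The receptor genes Tie1 and Tek are close relatives, and their probes are shown because they show how much of the sequence read is shared. The Tie1 probe lies at chr4:118144132-118144191 on the minus strand and the Tek probe at chr4:94540624-94540683 on the plus strand (mm9, the build of the files). Aligned without gaps over 57 bases, 39 were identical (68.4%), and these are in capitals.
Tie1: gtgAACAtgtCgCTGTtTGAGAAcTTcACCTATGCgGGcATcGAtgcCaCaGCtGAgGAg
Tek: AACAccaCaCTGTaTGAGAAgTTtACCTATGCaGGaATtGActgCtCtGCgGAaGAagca
The 2 probes of Kdr, the main VEGF receptor, are shown because their values differed in every comparison. The brighter lies at chr5:76330395-76330454 and has 55.0% G and C, and the other lies at chr5:76329309-76329368 and has 35.0%, both on the minus strand, against a median of 43.3% over all 55681 probes. The 2 Nos3 probes, described below, had the reverse order, with 41.7% G and C for the brighter and 55.0% for the other. Whether G and C content had a part in any value was not tested. The 30 bases richest in G and C of each Kdr probe are printed, with G and C in capitals.
Kdr, brighter probe: tGGaaGtGGtCCtGtCCCGGCtCCGCCCCC
Kdr, other probe: aaaCtatGtCtaCtGGtttCtGCCtGtGtG

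Promoter sequences, credited to RefSeq (GRCm38.p6), were available for 16 of the 33 genes, as the 250 bases before the transcription start. AGGAAG, a core that ETS factors bind, was found on either strand in the promoters of 8 of the 16 (Cd34, Egfl7, Emcn, Eng, Erg, Flt1, Robo4 and Tie1), against 32.3% of all 27025 genes in the table. CCGGAAG, another ETS sequence, which does not contain the first, was in 0 of the 16 and in 7.8% of all genes. AACAAAG, a SOX sequence, was in 1 (Tek, 6.2%), against 5.8% of all genes, and AGATAA, which GATA factors bind, in 2 (Erg and Tal1, 12.5%), against 11.4%. Robo4 and Tie1 are printed as examples, since both genes were well above background on all 6 renal arrays and on no marrow array; AGGAAG or its reverse complement is in capitals, and each window holds 1 match.
Robo4, chr9:37401722-37401971, plus strand: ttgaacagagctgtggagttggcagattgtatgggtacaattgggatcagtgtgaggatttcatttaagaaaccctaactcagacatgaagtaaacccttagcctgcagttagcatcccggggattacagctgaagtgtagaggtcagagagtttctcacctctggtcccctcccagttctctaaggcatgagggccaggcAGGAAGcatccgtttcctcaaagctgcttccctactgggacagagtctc
Tie1, chr4:118489850-118490099, minus strand: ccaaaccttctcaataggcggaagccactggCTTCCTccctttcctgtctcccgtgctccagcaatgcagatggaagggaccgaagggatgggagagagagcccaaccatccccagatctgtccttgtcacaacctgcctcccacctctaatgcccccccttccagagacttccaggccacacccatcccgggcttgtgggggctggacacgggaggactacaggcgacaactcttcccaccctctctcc
A match is a run of letters and says nothing about whether a factor was bound there.

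Nearly the whole list was read in the sorted kidney cells. The brightest probe of 32 of the 33 genes was well above background on all 6 renal arrays, and only Lyve1 was not. On the marrow arrays 17 of the 33 were well above background on all 6, 10 on 1 to 5, and 6 (Tie1, Sox17, Sox18, Robo4, Erg and Lyve1) on none. In renal against marrow cells, 30 of the 32 members tested were higher and 2 (Vwf and S1pr1) lower, beside 47.4% of all 28264 genes called higher and 34.7% called lower, 82.1% in all. The median member was higher by 3.01 on the log2 scale, against 0.32 over all genes tested, and 27 were at least 2-fold higher. With the 15 members that some marrow arrays read at background set to the lower bounds described below, the median was 2.81 and 27 were at least 2-fold higher. The 6 renal values did not overlap the 6 marrow values for 28 members that were higher and for S1pr1, which was lower, beside 46.7% of all genes tested. Because 7 of these members passed the filter on dim probes only through the renal arrays, where they are bright, the count among the 17 read on all 6 marrow arrays is given as well: 15 were higher and 2 lower, with a median of 1.53. Under a filter asking for signal well above background on all 12 arrays, 9586 of 20568 genes were higher and 7733 lower, with a median of 0.225. Op/op cells set alone against marrow cells gave 30 higher and 2 lower, and WT cells alone gave 28 and 2, with Eng (adjusted p = 0.0769, limma) and Nos3 (adjusted p = 0.079, limma) not called.

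**Figure D1:**
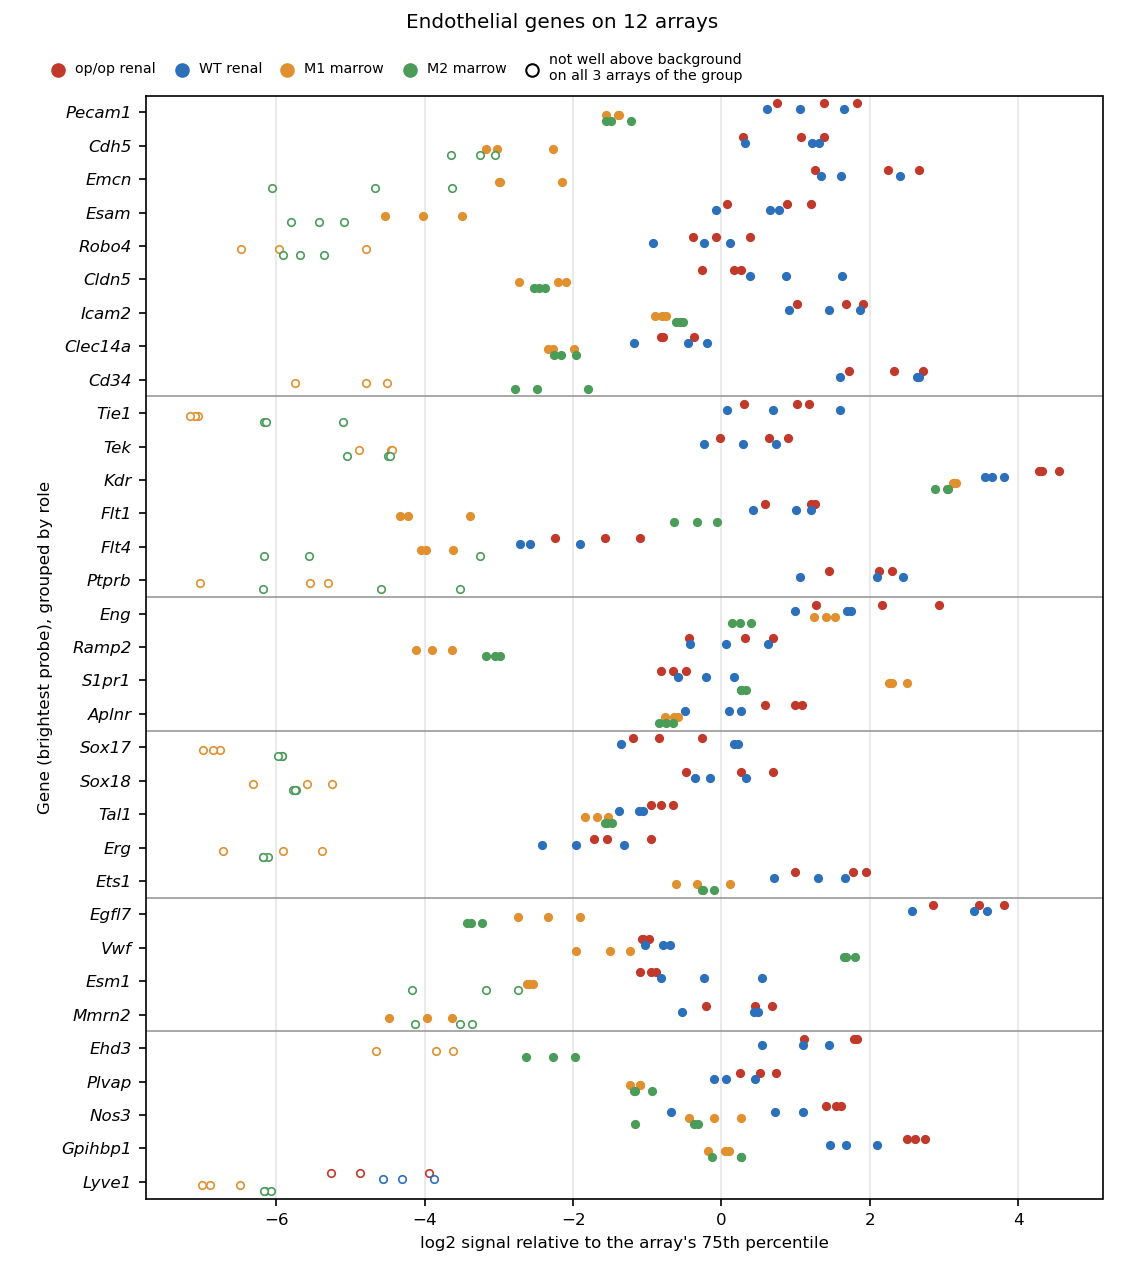
Level of each of the 33 genes on each of the 12 arrays (x axis, log2 signal of the brightest probe relative to the array's 75th percentile), with genes grouped by role from top to bottom: junction and surface proteins, receptor kinases and a phosphatase, coreceptors and G protein coupled receptors, transcription factors, secreted and matrix proteins, and proteins of specialised vessels. Each point is 1 array, open where the probe was not well above background on all 3 arrays of the group; the 6 renal points lie above the 6 marrow points for 28 of the 32 tested genes and below them for S1pr1.

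The junction and surface proteins were read on every renal array. Pecam1 (CD31), an adhesion protein at endothelial junctions that leukocytes and platelets also carry, had 0.75, 1.39 and 1.82 on the op/op arrays, against 1.66, 0.61 and 1.06 on the WT arrays. On the marrow arrays it had -1.40, -1.56 and -1.38 on the M1 arrays, against -1.56, -1.5 and -1.23 on the M2 arrays. Both renal groups thus lay above both marrow groups, by 2.65 ± 0.21 (SE; limma adjusted p = 3.75e-07), and overlapped each other. Cdh5, which encodes VE-cadherin, the adhesion protein of endothelial junctions, had 0.29, 1.07 and 1.38 on the op/op arrays, against 1.32, 0.32 and 1.22 on the WT arrays. With 5 of 6 marrow arrays well above background it was at least 16.1-fold higher in renal cells, and the op/op and WT ranges covered each other almost completely. Emcn (endomucin), a sialomucin of veins and capillaries, had 1.25, 2.25 and 2.67 on the op/op arrays, against 2.41, 1.34 and 1.61 on the WT arrays. All 3 M1 arrays and 1 M2 array read it well above background, and it was at least 36.3-fold higher in renal cells. Such bounds, used wherever some or all arrays of the dimmer side were at background, set the brighter side's mean against the dimmer side's mean of, on each array, the higher of the lowest signal well above background and the probe's own signal.

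Esam, an adhesion molecule of endothelial junctions and platelets, had 0.08, 0.89 and 1.21 on the op/op arrays, against 0.78, -0.08 and 0.65 on the WT arrays, and was at least 23.3-fold higher than in marrow cells, where all 3 M1 arrays and no M2 array read it well above background. Robo4, a roundabout receptor of vessels, had -0.38, 0.38 and -0.08 on the op/op arrays, against 0.12, -0.93 and -0.24 on the WT arrays. No marrow array read it well above background, so that it passed the filter only through the renal arrays and only a bound can be given. Robo4 was at least 17.7-fold higher in renal than in marrow cells. With the 10th percentile of signals well above background in place of the lowest, the Robo4 bound was 9.84-fold. Icam2, a ligand of leukocyte integrins, had 1.02, 1.68 and 1.91 on the op/op arrays, against 1.45, 0.91 and 1.86 on the WT arrays, and was 2.16 ± 0.18 above marrow cells. Clec14a, a lectin-type receptor of vessels, had -0.79, -0.81 and -0.37 on the op/op arrays, against -0.20, -1.18 and -0.45 on the WT arrays, and was 1.53 ± 0.17 above marrow cells. Cd34, a sialomucin of endothelium and of blood progenitors, had 1.72, 2.33 and 2.71 on the op/op arrays, against 2.66, 1.6 and 2.64 on the WT arrays, and was at least 56.5-fold higher than in marrow cells, where 1 M1 array and all 3 M2 arrays read it well above background. The op/op and WT values of these 5 genes and of the 3 before them overlapped, and claudin 5 is described with the genotype comparison.

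The receptors of the angiopoietin and VEGF systems were read as well. Tie1, the orphan partner of the angiopoietin receptor, had 0.30, 1.02 and 1.18 on the op/op arrays, against 1.6, 0.08 and 0.69 on the WT arrays. No marrow array was well above background for it, so that it passed the filter only through the renal arrays. It was at least 36.0-fold higher in renal cells (19.7-fold with the 10th percentile). Tek, which encodes the angiopoietin receptor TIE2, had -0.02, 0.64 and 0.90 on the op/op arrays, against 0.73, -0.23 and 0.29 on the WT arrays. On the marrow arrays Tek was well above background on 2 M1 arrays and on no M2 array, and it was at least 24.8-fold higher in renal cells (14.6-fold with the 10th percentile). Each of the pair was thus bright on all 6 renal arrays through probes that share 39 of 57 aligned bases. Ptprb, the endothelial phosphatase VE-PTP that acts on TIE2 and VE-cadherin, had 1.45, 2.30 and 2.13 on the op/op arrays, against 2.45, 1.06 and 2.10 on the WT arrays. With 1 of 6 marrow arrays well above background, it was at least 73.9-fold higher in renal cells (42.2-fold with the 10th percentile).

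Among the VEGF receptors, Flt1 (VEGFR1), which is also made by monocytes and macrophages, had 0.59, 1.27 and 1.21 on the op/op arrays, against 1.0, 0.43 and 1.21 on the WT arrays, and lay 3.11 ± 0.21 above the mean of the marrow groups. Flt4 (VEGFR3), the receptor of lymphatic and some fenestrated endothelium, had -1.09, -2.24 and -1.57 on the op/op arrays, against -2.58, -2.71 and -1.91 on the WT arrays. Its marrow values were lower, with -3.99, -4.05 and -3.62 on the M1 arrays, against -3.25, -5.56 and -6.17 on the M2 arrays, and with 4 of 6 marrow arrays well above background it was at least 3.40-fold higher in renal cells (limma adjusted p = 0.000208). The op/op and WT values of Flt4 overlapped, with op/op replicate 1 highest and WT replicates 1 and 2 lowest. Kdr is described with the genotype comparison.

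The coreceptors and G protein coupled receptors were well above background on all 12 arrays. Eng (endoglin), the TGF-beta coreceptor of proliferating endothelium that macrophages also carry, had 1.28, 2.17 and 2.93 on the op/op arrays, against 1.74, 0.99 and 1.69 on the WT arrays. On the marrow arrays it had 1.41, 1.25 and 1.53 on the M1 arrays, against 0.25, 0.15 and 0.39 on the M2 arrays, so that its renal and M1 values overlapped, and the renal mean was 0.97 ± 0.24 higher than the marrow mean (limma adjusted p = 0.00301). With slide as a random block this call was lost (1.03, adjusted p = 0.0763, limma), and over all alternatives its adjusted p ran from 0.000177 to 0.0763. Ramp2, the partner of the adrenomedullin receptor, had -0.44, 0.31 and 0.69 on the op/op arrays, against 0.07, -0.43 and 0.63 on the WT arrays, and was 3.62 ± 0.22 above marrow cells. S1pr1, a sphingosine 1-phosphate receptor of endothelium and lymphocytes, went the other way, with -0.82, -0.48 and -0.65 on the op/op arrays, against 0.17, -0.59 and -0.21 on the WT arrays. On the marrow arrays it had 2.30, 2.50 and 2.26 on the M1 arrays, against 0.33, 0.27 and 0.26 on the M2 arrays. Every renal array thus lay below every marrow array, by -1.75 ± 0.14 on average (limma adjusted p = 3.83e-07). In op/op against WT cells S1pr1 differed by -0.44 ± 0.20 with overlapping values, which was not called (adjusted p = 0.0672, limma), and was called without WT replicate 2 (-0.63, adjusted p = 0.018; 0.018 to 0.46 over all alternatives).

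All 5 transcription factors of the list were well above background on all 6 renal arrays. Sox17, an arterial endothelial factor, had -1.19, -0.26 and -0.84 on the op/op arrays, against 0.23, -1.35 and 0.17 on the WT arrays. Sox18, which acts in blood and lymph vessel formation, had -0.48, 0.26 and 0.70 on the op/op arrays, against -0.15, -0.36 and 0.34 on the WT arrays. Erg, an ETS factor that maintains endothelial identity, had -1.72, -0.96 and -1.54 on the op/op arrays, against -1.96, -2.42 and -1.32 on the WT arrays. None of the 3 was well above background on any marrow array, and the renal levels were at least 14.1-fold higher for Sox17, 21.2-fold for Sox18 and 6.52-fold for Erg (7.70, 11.6 and 3.57-fold with the 10th percentile). A second Erg probe was at background on all 12 arrays. Ets1, an ETS factor of endothelium and lymphocytes, had 1.0, 1.78 and 1.95 on the op/op arrays, against 1.30, 0.71 and 1.67 on the WT arrays, and was 1.64 ± 0.21 above marrow cells. Tal1, a factor of blood progenitors and of early endothelium, had -0.81, -0.95 and -0.65 on the op/op arrays, against -1.05, -1.38 and -1.11 on the WT arrays. It had -1.68, -1.84 and -1.52 on the M1 arrays, against -1.54, -1.56 and -1.48 on the M2 arrays, and its renal minus marrow difference of 0.61 ± 0.11 was the smallest rise among the 30 (limma adjusted p = 0.000325). The 3 op/op values of Tal1 lay above the 3 WT values, by 0.38 ± 0.16, which was not called (adjusted p = 0.0592, limma).

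Of the secreted and matrix proteins, Egfl7, which endothelial cells deposit along vessels, had 2.85, 3.47 and 3.81 on the op/op arrays, against 3.40, 2.57 and 3.58 on the WT arrays. It had -2.74, -2.33 and -1.91 on the M1 arrays, against -3.38, -3.44 and -3.23 on the M2 arrays, was well above background on all 12 arrays, and lay 6.12 ± 0.22 higher in renal cells, or 69.5-fold, the largest difference among the 17 genes read on every marrow array. Mmrn2 (multimerin 2), a matrix protein of vessels, had -0.21, 0.46 and 0.69 on the op/op arrays, against 0.44, -0.53 and 0.50 on the WT arrays, and was at least 16.4-fold higher than in marrow cells, with 5 of 6 marrow arrays well above background. Vwf (von Willebrand factor), the clotting protein that endothelium and megakaryocytes store, had -1.07, -0.97 and -1.05 on the op/op arrays, against -0.79, -0.70 and -1.03 on the WT arrays. The marrow arrays split by group, with -1.97, -1.5 and -1.23 on the M1 arrays, against 1.68, 1.80 and 1.65 on the M2 arrays. The renal mean was -1.01 ± 0.14 relative to the marrow mean, with every renal array above every M1 array and below every M2 array. Esm1 (endocan), a proteoglycan of activated endothelium, had -0.95, -0.88 and -1.10 on the op/op arrays, against 0.54, -0.82 and -0.24 on the WT arrays. Its 3 op/op values lay below its 3 WT values, by -0.81 ± 0.37, which was not called (adjusted p = 0.0756, limma), and it passed the threshold in 4 of 23 alternatives (adjusted p 0.0171 to 0.491).

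Genes of specialised kidney vessels were read too. Ehd3, a membrane trafficking protein used as a marker of glomerular endothelium, had 1.11, 1.82 and 1.79 on the op/op arrays, against 1.10, 0.55 and 1.45 on the WT arrays. With 5 of 6 marrow arrays well above background, it was at least 22.2-fold higher in renal cells. Plvap, the protein of the diaphragms that span fenestrae in peritubular capillaries, had 0.52, 0.25 and 0.74 on the op/op arrays, against 0.45, -0.10 and 0.07 on the WT arrays, and was 1.44 ± 0.13 above marrow cells. Its other probe put that difference at 4.14 ± 0.23. Lyve1, a hyaluronan receptor, had -3.95, -4.87 and -5.26 on the op/op arrays, against -4.57, -3.87 and -4.31 on the WT arrays, and was well above background on 2 WT arrays and no other array, so that it was not tested. The remaining genes of this kind, Gpihbp1 and Nos3, are described next.

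The op/op against WT comparison asks how the listed genes differ in the sorted cells when the mice lack functional M-CSF. Most of the list was not called. Of 32 members tested, 4 (Kdr, Nos3, Aplnr and Gpihbp1) were higher in op/op cells, 1 (Cldn5) was lower and 27 were not called, beside 59.4% of all 27063 genes called (30.9% higher, 28.5% lower). The median member differed by 0.21, against 0.16 over all genes tested, and the members ran from -0.90 to 1.14. All 32 were well above background on all 6 renal arrays. The op/op and WT values did not overlap for 7 of the 32 (Aplnr, Gpihbp1, Kdr, Nos3 and Tal1 higher, Cldn5 and Esm1 lower), beside 58.8% of all genes tested. The members not called ran from -0.805 for Esm1 to 0.77 for Flt4. Examples among them were Pecam1 (0.21 ± 0.29), Cdh5 (-0.04 ± 0.35), Tie1 (0.04 ± 0.39) and Cd34 (-0.05 ± 0.41). Their adjusted p-values were 0.548, 0.927, 0.932 and 0.925 (limma). Leaving out 1 array brought 6 further members past the threshold: Plvap (0.52) and Tal1 (0.44) without WT replicate 1, Tal1 (0.45) also without op/op replicate 2, Eng (1.07) without op/op replicate 1, Sox17 (-0.97), S1pr1 (-0.63) and Esm1 (-1.13) without WT replicate 2, and Esm1 (-0.81) also without M2 replicate 2. Over all alternatives the adjusted p (limma) ran from 0.03 to 0.327 for Plvap, 0.0242 to 0.291 for Tal1, 0.0112 to 0.482 for Eng and 0.0113 to 0.713 for Sox17. A p above the threshold does not show that the groups are equal.

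Kdr (VEGFR2), the main signalling receptor for VEGF, had 4.32, 4.28 and 4.55 on the op/op arrays, against 3.56, 3.65 and 3.81 on the WT arrays. All 3 op/op arrays lay above all 3 WT arrays, by 0.71 ± 0.15, or 1.64-fold (limma adjusted p = 0.00293). The same probe was bright on the marrow arrays, with 3.13, 3.17 and 3.12 on the M1 arrays, against 2.88, 3.06 and 3.05 on the M2 arrays. The other Kdr probe had 1.5, 2.48 and 2.98 on the op/op arrays, against 2.24, 1.66 and 2.26 on the WT arrays, and these groups overlapped, with a difference of 0.27 ± 0.36 (adjusted p = 0.535, limma, every probe tested on its own). On the marrow arrays that probe had -2.98, -3.23 and -2.50 on the M1 arrays, against -4.87, -4.88 and -4.20 on the M2 arrays, with no M2 array well above background. It was at least 48.0-fold higher in renal than in marrow cells, against 1.95-fold for the brighter probe. With the mean of the 2 probes Kdr was not called in op/op against WT (0.49, adjusted p = 0.0795, limma). Over 24 alternatives its difference ran from 0.49 to 0.78 and its adjusted p from 0.0012 to 0.0829.

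Aplnr, the receptor of apelin, which guides vessel growth, had 1.09, 0.59 and 0.99 on the op/op arrays, against -0.50, 0.10 and 0.27 on the WT arrays. It was 1.91-fold higher in op/op cells (0.93 ± 0.21; limma adjusted p = 0.00434), and its groups did not overlap. Its probe lies at chr2:84979638-84979697, and on the marrow arrays it had -0.59, -0.77 and -0.63 on the M1 arrays, against -0.84, -0.75 and -0.65 on the M2 arrays. Gpihbp1, which carries lipoprotein lipase to the capillary lumen, had 2.74, 2.50 and 2.61 on the op/op arrays, against 1.69, 1.46 and 2.09 on the WT arrays. It was 1.83-fold higher in op/op cells (0.87 ± 0.20; limma adjusted p = 0.00413), again without overlap. The Gpihbp1 probe lies at chr15:75428484-75428543, and it had 0.10, 0.05 and -0.19 on the M1 arrays, against 0.27, 0.26 and -0.12 on the M2 arrays. Within the slide that held 3 op/op and 2 WT arrays, Kdr (0.65), Aplnr (0.71) and Gpihbp1 (0.84) kept their calls.

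Nos3, the endothelial nitric oxide synthase, had 1.61, 1.54 and 1.41 on the op/op arrays, against -0.68, 0.72 and 1.10 on the WT arrays. Its probe lies at chr5:23890038-23890097. WT replicate 1 was the lowest by far, and the op/op mean was 1.14 ± 0.40 higher, or 2.20-fold (limma adjusted p = 0.0295). Without WT replicate 1, that is within the shared slide, the Nos3 difference was 0.61 and was not called (adjusted p = 0.0961, limma), and leaving out op/op replicate 1, 2 or 4 also ended the call (adjusted p = 0.0812, 0.0607 and 0.0518). The other Nos3 probe had -2.81, -1.55 and -1.36 on the op/op arrays, against -0.78, -2.22 and -1.47 on the WT arrays, with a difference of -0.42 ± 0.41 (adjusted p = 0.398, limma). The 2 Nos3 probes thus differed in sign, and with their mean the gene was not called (0.36, adjusted p = 0.165). Over 24 alternatives the adjusted p of Nos3 ran from 0.00808 to 0.165, and it was called under 15.

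Cldn5 (claudin 5), the tight junction protein of endothelium, was the member lower in op/op cells, with -0.26, 0.27 and 0.17 on the op/op arrays, against 1.62, 0.39 and 0.87 on the WT arrays. Its probe lies at chr16:18778046-18778105. Every op/op value lay below every WT value, by -0.90 ± 0.29 on the log2 scale (limma adjusted p = 0.0204), while the closest pair, op/op replicate 2 and WT replicate 2, differed little. Cldn5 was 2.91 ± 0.20 higher in renal than in marrow cells. Without WT replicate 1 its op/op minus WT difference was -0.57 (adjusted p = 0.0696, limma), and without op/op replicate 1 it was -0.74 (adjusted p = 0.0813), so that the call was lost in both. The adjusted p ran from 0.00835 to 0.218 over 24 alternatives and passed in 18. Clec14a had a second, dim probe that was well above background on all 3 WT arrays and on no op/op array, and that probe was called lower in op/op cells when every probe was tested on its own (adjusted p = 0.00203, limma); its brightest probe differed by -0.04 ± 0.24, and no fold is given for the dim probe because the bound was under 1.

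**Figure D2:**
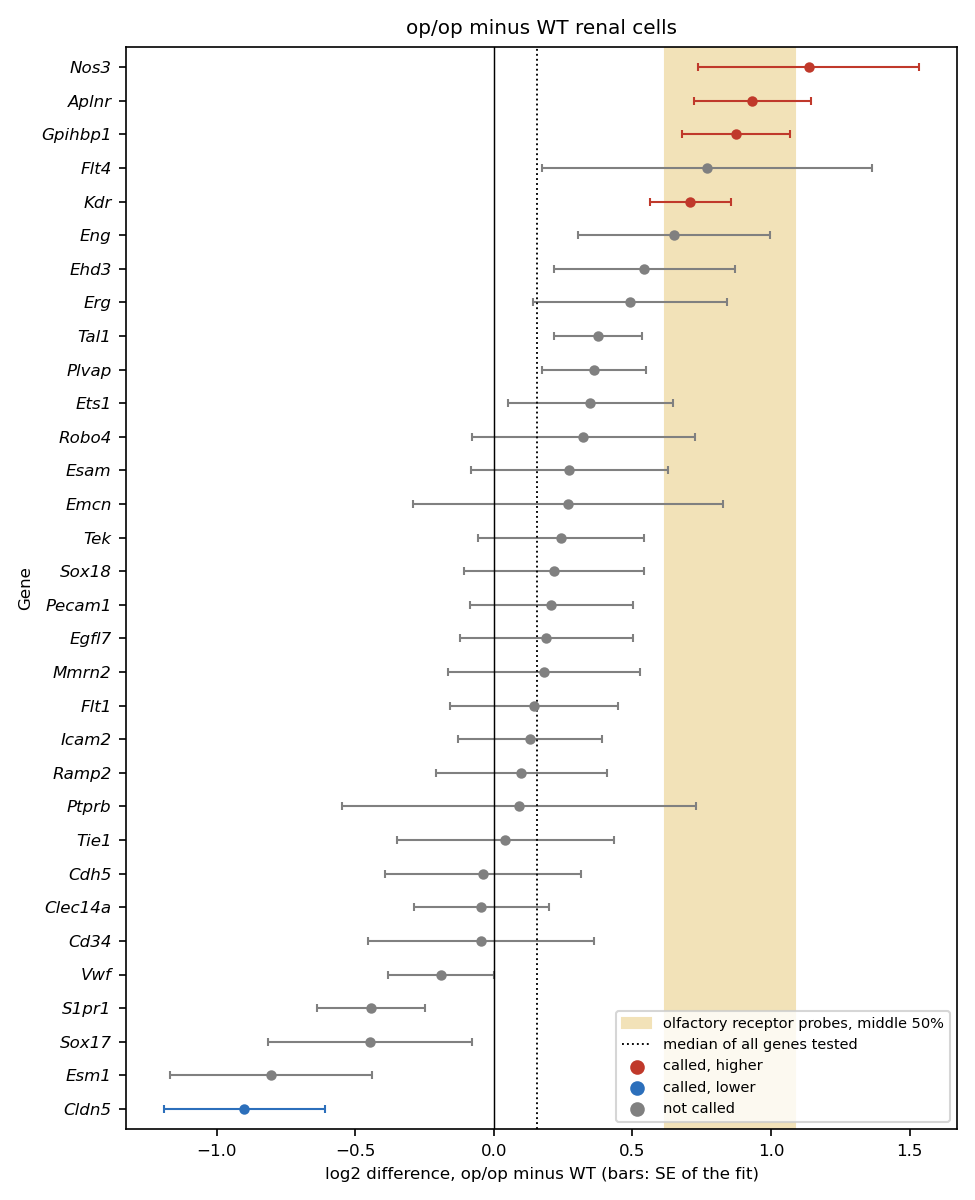
Difference between op/op and WT renal cells for the 32 tested genes (x axis, log2, op/op minus WT; bars, standard error of the limma fit; 3 arrays a group), with called genes in colour. The solid line is 0, the dotted line the median of all genes tested (0.16) and the band the middle 50% of 215 olfactory receptor probes (0.62 to 1.09), within which Aplnr, Gpihbp1, Kdr, Flt4 and Eng lie.

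Probes of genes that these cells are not known to use also read higher on the op/op arrays. Of the olfactory receptor probes, a set looked up after the values had been seen, 215 were well above background on all 12 arrays. Their median op/op minus WT difference was 0.86, with quartiles of 0.62 and 1.09, against a median of 0.13 over all 28679 probes well above background on all 12 arrays. Their median renal minus marrow difference was 1.30, against 0.19 over those probes and 1.53 over the 17 members read on every marrow array. The 4 members called higher in op/op cells (0.71 to 1.14) were all among the 17 read on every marrow array, and none of the 15 other members tested was called. The part of the olfactory probes' shift in these results was not tested.

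**Figure D3:**
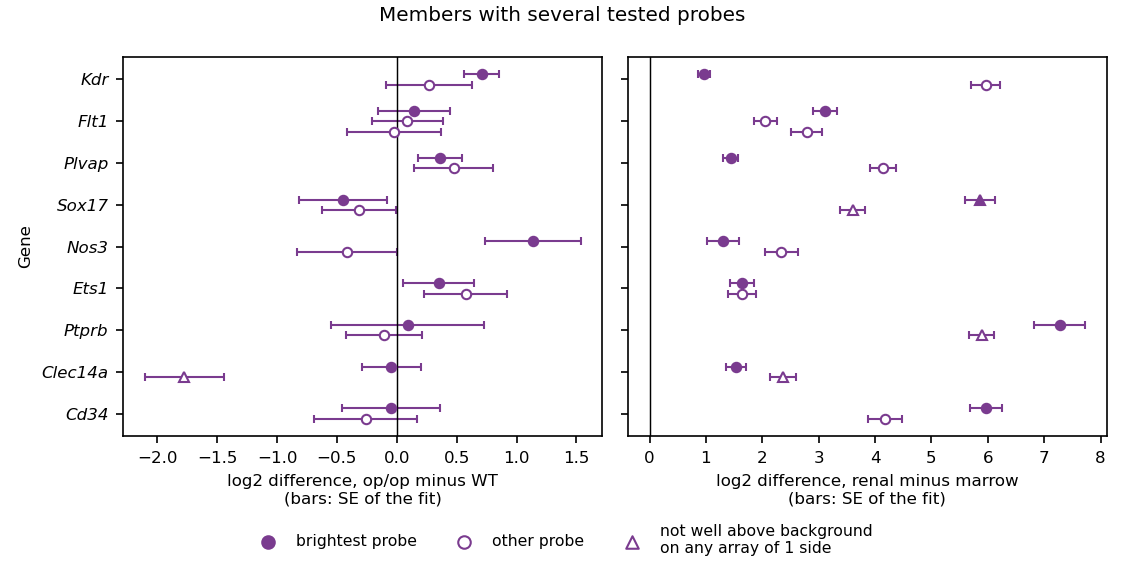
The 9 genes with several tested probes, with the difference of each probe (filled, the brightest; open, the others; bars, standard error of the limma fit) in op/op minus WT (left) and renal minus marrow (right), log2. In op/op minus WT the Kdr probes lie at 0.71 and 0.27, the Nos3 probes at 1.14 and -0.42, and the Clec14a probes, the dim one with no op/op array well above background, at -0.04 and -1.77, while all probes lie above 0 in renal minus marrow; a triangle marks a probe at background on all arrays of 1 side, whose fitted difference is no bound.

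Within each genotype most members were lowest on the same array. Op/op replicate 1 was the lowest of the 3 op/op arrays for 23 of 32 members (71.9%), against 30.4% of all genes tested, and WT replicate 2 was the lowest of the 3 WT arrays for 28 of 32 (87.5%), against 30.4%. For 22 of 32 (68.8%) both held, against 7.1% of all genes tested. These 22 were Pecam1, Cdh5, Emcn, Esam, Robo4, Cldn5, Icam2, Cd34, Tie1, Tek, Flt1, Ptprb, Eng, Ramp2, S1pr1, Sox17, Sox18, Erg, Ets1, Egfl7, Mmrn2 and Ehd3. The 10 that did not follow were Aplnr, Clec14a, Esm1, Flt4, Gpihbp1, Kdr, Nos3, Plvap, Tal1 and Vwf, which hold all 4 members called higher in op/op cells. The second Kdr and Nos3 probes, with op/op replicate 1 and WT replicate 2 lowest, followed the 22. So did the dim Clec14a probe, which no op/op array read well above background, while the second Plvap probe did not. Among the 22 genes, the other tested probes of Ets1, Ptprb and Cd34 followed. The other Flt1 probes split, and the second Sox17 probe did not follow. The array with the median member lowest in each genotype was the same: the member medians were 0.29, 0.64 and 0.99 on op/op replicates 1, 2 and 4, and 0.73, 0.08 and 0.65 on WT replicates 1, 2 and 4.

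**Figure D4:**
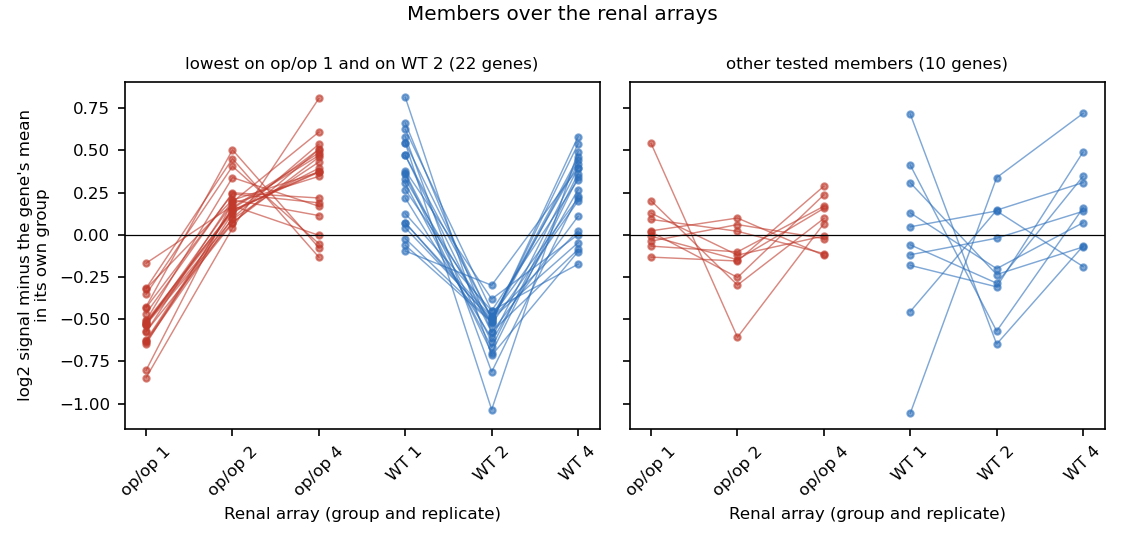
Deviation of each gene from its own group's mean on the 6 renal arrays (y axis, log2; x axis, array by group and replicate; lines join the arrays of 1 group for 1 gene), left for the 22 genes lowest on both op/op replicate 1 and WT replicate 2 and right for the other 10 tested. The genes on the left were sorted by this pattern and share it by construction, while those on the right do not.

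Markers of other cells were compared between the genotypes too. For scale, 59.4% of all genes tested were called (30.9% higher, 28.5% lower). Of 15 macrophage markers, all tested, 11 were lower in op/op cells and 0 higher (median -1.5; 0 were at background throughout), and their summed linear level, in units of each array's 75th percentile and weighted to the brightest probes, was 289 to 365 on the op/op arrays and 290 to 439 on the WT arrays. Their median level was 0.05, 0.14 and 0.47 on op/op replicates 1, 2 and 4, and 2.26, 3.34 and 1.51 on WT replicates 1, 2 and 4. WT replicate 2, lowest for the endothelial genes, was thus highest for the macrophage markers. Op/op replicate 1, also lowest for the endothelial genes, was lowest for the macrophage markers too, so that the 2 genotypes differed in this. Of 11 proximal tubule markers 10 were lower in op/op cells (median -1.73), with summed levels of 24.8 to 71.7 on the op/op arrays and 119 to 247 on the WT arrays. Of 10 platelet and megakaryocyte markers tested, of 14 listed, 6 were higher and 1 lower (median 0.76), with summed levels of 50.3 to 61.8 and 20.3 to 39.3 on the op/op and WT arrays. Of 9 lymphocyte markers tested, of 12 listed, 5 were higher and 2 lower (median 1.03), with summed levels of 24.0 to 32.1 and 7.84 to 15.9, and Cd3g was at background on all 12 arrays. Podocyte markers (10 tested, 2 higher and 4 lower) and mural cell and fibroblast markers (12 tested, 1 higher and 5 lower) split, and of 3 erythroid markers tested 1 was lower, with Ahsp at background throughout. Their part in the endothelial results was not tested.

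In renal against marrow cells, all 11 proximal tubule and all 10 podocyte markers were also higher, as were 5 of 14 mural cell and fibroblast markers, with 9 lower. Over all genes tested, 47.4% were called higher and 34.7% lower. The proximal tubule sums were 1.72 to 1.77 on the M1 arrays and 2.79 to 3.11 on the M2 arrays, and the podocyte sums 23.9 to 25.6 on the op/op and 24.4 to 35.8 on the WT arrays, against 5.13 to 5.45 on the M1 and 4.82 to 5.12 on the M2 arrays. Of the 15 macrophage markers 3 were higher and 10 lower in renal cells. The endothelial list was thus higher in renal cells together with those of the kidney's own epithelial cells in this comparison.

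A second list of 63 endothelial genes outside the 33, from ligands to downstream factors, was read for context. Of 59 tested in renal against marrow cells 39 were higher and 15 lower (median 1.498), beside 47.4% and 34.7% of all genes tested, whose median was 0.32. Of the 59, 9 passed the filter only through the renal arrays, and of the other 50, 30 were higher and 15 lower. The fitted difference was 4-fold or more for 27, with 21 higher and 6 lower, and for 14 of the 27 only a bound can be given. Among those higher, Sema3g, a semaphorin of arteries, had 2.90 ± 0.28 in op/op cells and 3.51 ± 0.37 in WT cells, against -3.61 ± 0.28 in M1 and -4.44 ± 0.92 in M2 cells (SD, n = 3 each). Plat, tissue plasminogen activator, had 2.42 ± 0.56 in op/op cells and 2.23 ± 0.25 in WT cells, against -1.44 ± 0.37 in M1 and -3.91 ± 0.41 in M2 cells (SD, n = 3 each). Both were read on all 6 renal arrays and on 4 of 6 marrow arrays, and were at least 117-fold and 30.4-fold higher in renal cells. Gja5, a gap junction protein of arterial endothelium, differed by 3.78 ± 0.19, and Gja4, its partner, by 3.32 ± 0.19. The flow-responsive factor Klf2 (3.79 ± 0.15) as well as Arap3 (4.45 ± 0.20) and the artery ligand Efnb2 (2.11 ± 0.23) were higher. Gata2 differed by 2.50 ± 0.26, Tspan18 by 3.27 ± 0.17 and Bmp6 by 2.02 ± 0.11. Marrow arrays read 5 others well above background only in part, and the renal levels were at least 15.8-fold higher for Rasip1 (3 of 6 marrow arrays), 9.38-fold for the Notch receptor Notch4 (3 of 6), 10.6-fold for Meis2 (4 of 6), 7.96-fold for Sox7, the SOX relative of Sox17 and Sox18 (2 of 6), and 4.61-fold for Figf, the ligand VEGF-D (1 of 6). A further 6 were at background on all marrow arrays and are given as bounds of at least 28.6-fold for Podxl, which podocytes share, 8.53-fold for Cyyr1, 5.82-fold for Eltd1, 2.89-fold for Rasgrp3, 2.06-fold for Heyl and 2.05-fold for Igfbp3, so that for the last 3 a 4-fold difference was not shown.

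The 6 lower in renal cells were Cd36 (-5.34 ± 0.31), a fatty acid carrier of capillaries and macrophages, Nrp2 (-3.94 ± 0.12), a VEGF and semaphorin coreceptor, Vcam1 (-3.38 ± 0.37), an adhesion protein of activated endothelium and of macrophages, Apln (at least 4.10-fold lower), the ligand of the listed receptor gene Aplnr, Pdpn (-2.76 ± 0.12), and Procr (-2.25 ± 0.12), the endothelial protein C receptor. Apln was well above background on 2 WT arrays and on no op/op array. All 6 were well above background on all 6 marrow arrays, and 50 and 43 of the 63 genes were so on all 3 M1 and all 3 M2 arrays. In op/op against WT cells 7 of 58 tested were higher and 17 lower (median -0.20), beside the 59.4% of all genes called. Vcam1 had -2.14, -2.20 and -1.44 on the op/op arrays, against 1.42, 1.73 and -0.76 on the WT arrays, and was -2.72 ± 0.52 relative to WT (limma adjusted p = 0.00216). The 3 op/op values all lay below the 3 WT values. Igfbp3, an insulin-like growth factor binding protein that vessels make, was well above background on all 3 WT and on no op/op arrays. It thus passed the filter only through the WT arrays, and was at least 2.84-fold lower in op/op cells (1.75-fold with the 10th percentile).

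The marrow macrophages also differed between themselves in some of the listed genes. Of 25 members tested in M1 against M2 cells, 5 were higher (S1pr1, Emcn, Esam, Eng and Egfl7) and 4 lower (Flt1, Vwf, Cd34 and Ehd3), beside 17.8% of all 26176 genes called (8.85% higher, 8.92% lower); 16 were not called, and the median was -0.02. Of the 17 genes read on all 6 marrow arrays, 3 were higher (S1pr1, Eng and Egfl7) and 2 lower (Flt1 and Vwf). The 2 groups of values did not overlap for 7 members that were higher and 6 that were lower, beside 51.3% of all genes tested.

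Flt1 had -4.22, -4.33 and -3.39 on the M1 arrays, against -0.33, -0.63 and -0.06 on the M2 arrays. It was -3.64 ± 0.30 relative to M2 cells, or 12.5-fold lower (limma adjusted p = 6.04e-06), and no value overlapped. Of the other Flt1 probes, 1 was at least 11.7-fold lower in M1 cells and the other, read on all 6 marrow arrays, differed by -0.63 ± 0.30 and was not called on its own (adjusted p = 0.185, limma). Vwf, at -1.97, -1.5 and -1.23 on the M1 arrays, against 1.68, 1.80 and 1.65 on the M2 arrays, was 9.65-fold lower in M1 cells (-3.27 ± 0.19; limma adjusted p = 4.00e-07), and the M2 values also lay above all 6 renal values. Cd34 was at least 5.16-fold lower in M1 cells (2.88-fold with the 10th percentile; limma adjusted p = 0.000708), at -4.80, -4.51 and -5.75 on the M1 arrays, against -2.79, -2.48 and -1.80 on the M2 arrays, with 1 of the 3 M1 arrays well above background. Ehd3 was at least 3.37-fold lower (limma adjusted p = 0.00276), with 2 M1 arrays well above background. The calls of Flt1, Vwf and Ehd3 held in every alternative run on the gene, leaving aside the single Flt1 probe above, and that of Cd34 was lost with its other probe, the one read on all 12 arrays (-1.19, adjusted p = 0.0624, limma).

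S1pr1 was 4.2-fold higher in M1 cells (2.07 ± 0.20; limma adjusted p = 1.66e-05), called in every alternative run, with the 3 M1 values far above the 3 M2 values. Eng was 2.19-fold higher (1.13 ± 0.35; limma adjusted p = 0.0419), and its call was lost when any 1 marrow array, or op/op replicate 2, was left out (adjusted p up to 0.129). Egfl7 was 2.03-fold higher (1.02 ± 0.31; limma adjusted p = 0.0425), with the call lost without M1 replicate 3 or 4, any 1 M2 array, or op/op replicate 2 (adjusted p up to 0.17). Emcn was at least 2.13-fold higher (1.30-fold with the 10th percentile; limma adjusted p = 0.0233), with 1 M2 array well above background, and the call was lost without M1 replicate 4, M2 replicate 2 or M2 replicate 3 (adjusted p up to 0.0981). Esam had -4.53, -4.03 and -3.49 on the M1 arrays, against -5.81, -5.42 and -5.08 on the M2 arrays, with no M2 array well above background. It was called higher in M1 cells (limma adjusted p = 0.0157), no fold is given because the bound was under 1, and its call was lost without M1 replicate 4 or M2 replicate 2 (adjusted p up to 0.0762). With a floor at the 10th percentile of the signals read above background, the fitted Esam difference turned to -0.64 (adjusted p = 0.116). Over all alternatives the adjusted p ran from 0.000487 to 0.129 for Eng, 0.00131 to 0.233 for Egfl7, 0.00243 to 0.508 for Emcn and 0.000595 to 0.567 for Esam.

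Several members read on all 6 marrow arrays had differences close to 0 and were not called: Pecam1 by -0.02 ± 0.29, Kdr by 0.14 ± 0.15, Cldn5 by 0.11 ± 0.29, Aplnr by 0.09 ± 0.21 and Gpihbp1 by -0.15 ± 0.20. Ramp2, at -0.82 ± 0.31, had M1 values below every M2 value and was not called (adjusted p = 0.0957, limma); it was called in the fit on the 2 marrow groups alone (-0.82, adjusted p = 0.00473) and without op/op replicate 1 (adjusted p = 0.0483), with adjusted p-values of 0.00284 to 0.499 over all alternatives. Flt4, with 1 M2 array well above background and a bound under 1, was not called (adjusted p = 0.259, limma), and was called higher in M1 cells without M2 replicate 2 (adjusted p = 0.00398; 0.00398 to 0.863 over all alternatives). The other Kdr probe, with no M2 array well above background, was called higher in M1 cells when every probe was tested on its own (adjusted p = 0.00526, limma).

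**Figure D5:**
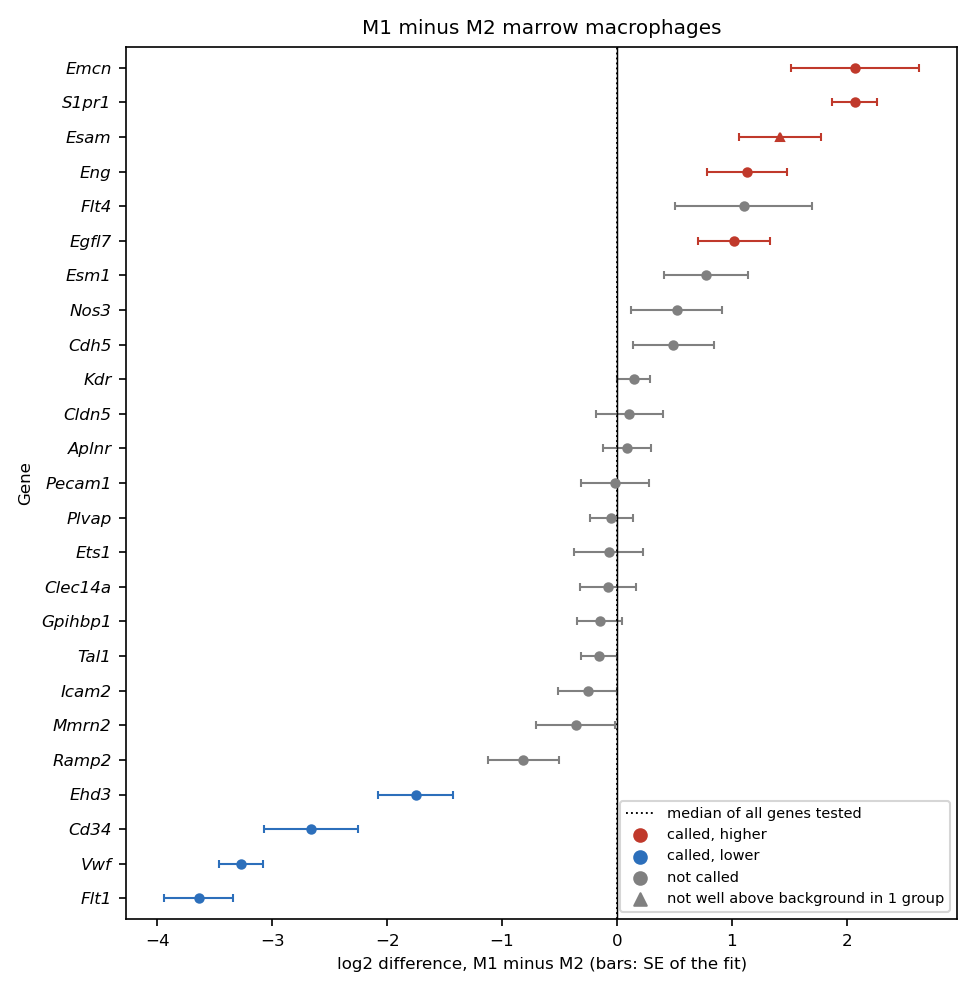
Difference between M1 and M2 marrow macrophages for the 25 tested genes (x axis, log2, M1 minus M2; bars, standard error of the limma fit; 3 arrays a group), with called genes in colour and the median of all genes tested as a dotted line. The fitted differences of Flt1, Vwf, Cd34 and Ehd3 lie between -3.64 and -1.75 and that of S1pr1 at 2.07; the triangle marks Esam, which no M2 array read well above background.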

How the data were processed

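The 12 arrays are Agilent one-colour arrays labelled with Cy3 after whole-transcriptome amplification, and the deposited scanner files hold a processed intensity for each spot, background-corrected by Agilent Feature Extraction 10.7.3.1 per the file headers. The deposited value table holds log2 values of the same arrays, scaled by the authors, whose correlation with the scanner values was 1.0000 on each array; it was used as an alternative, and its column medians ran from -2.47 to -1.88. Processed intensities were averaged over the spots of a probe, put on the log2 scale and set relative to each array's 75th percentile. Control spots and outlier spots were left out, which removed 30 of 55681 probes. A gene was represented by its brightest probe and tested where 1 or more of the groups compared read that probe well above background on all their arrays.

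Differences were fitted with limma 3.58.1 (lmFit and eBayes, R 4.3.3) over 12 arrays in 4 groups with no covariate, adjusted by the Benjamini-Hochberg method over all genes tested, and the code was tested on simulated data first. Values by sample were given for every member well above background on all arrays of at least 1 renal group, and genes of the second endothelial list were named where called at 4-fold or more. The members, the lists and the tests were chosen with earlier results of these data known. Alternatives changed the background correction, scaling, filter, choice of probe, samples fitted, array weights, slide and replicate terms, and left out each array in turn. Probe positions are those of the files (mm9), exon positions were not used here, and no interval from counting applies to arrays.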

Additional observations from a re-analysis of the deposited data

How the results depend on the processing

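For op/op against WT, the 4 members higher became 1 at 2-fold or more, 2 with the mean of all probes, 8 with array weights and 2 with the next brightest probe, a setting chosen after seeing the data, and ran from 3 to 5 with 1 array left out. The 1 lower became 2 with normexp background correction, the floor at the 10th percentile, the mean of all probes, every probe on its own or the next brightest probe, and 0 at 2-fold or more, in the fit on the groups compared (limma; 2 at an unadjusted p under 0.05), with array weights (limma; 0 unadjusted) and with slide as a term (limma; 1 unadjusted); with 1 array left out it ran from 0 (without WT replicate 1 or op/op replicate 1) to 4 (without WT replicate 2), with 2 without M2 replicate 2. For renal against marrow, 30 higher became 16 of 18 tested under the filter on all 12 arrays. With slide as a random block 28 were higher, with Eng and Nos3 (adjusted p = 0.0653, limma) not called. The calls over all genes then came to 17591, against 23205. Leaving out 1 array gave 30 to 31 higher and 2 lower. For M1 against M2, the 5 higher became 2 with normexp, 1 with quantile normalization, 3 with no filter or the filter on all 12 arrays, and 2 with the floor, under which Esam turned to -0.64; the 4 lower became 2 under the filter on all 12 arrays. With 1 array left out, 1 to 5 were higher, 1 of them without M1 replicate 4, and 4 to 5 lower. Where not stated, the cause was not tested. Over 89 single-gene results and 2012 alternatives, 1879 kept sign and side of the threshold, 51 changed sign with no call before or after (21 genes and comparisons), 51 lost a call, 30 gained one and 1 called result, that of Esam, reversed. Fitted on the groups compared, the calls over all genes for op/op against WT came to 10142, against 16080 over 12 arrays, and in M1 against M2 to 9698, against 4653 (10358 with array weights). For renal against marrow that fit is the same as the one reported and was not run again.

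The replicate numbers did not pair the samples: same-numbered deviations correlated at -0.142, 0.08 and -0.062 between op/op and WT and at -0.047, 0.124 and 0.076 between M1 and M2. With the replicate block, 0 members were higher and 0 lower in op/op against WT (limma; 5 and 2 at an unadjusted p under 0.05), 6 were higher and 5 lower in M1 against M2, and the calls over all genes were 4287 for op/op against WT and 8993 for M1 against M2.

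With 3 arrays a group, slide cannot be told apart from renal against marrow, nor row from genotype or from M1 against M2. Genes near background in marrow cells have only bounds there.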
